A study of Mus musculus with 12 samples.

Results

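Runx1, Maf, Mef2a, Mef2c, Klf2, Klf6, Tfec, Mitf and Bhlhe40 encode 9 transcription factors that act beside PU.1 in macrophages and other myeloid cells. They were taken by gene symbol and are 9 of the 24062 entries in each of the 2 deposited tables of FPKM, that is, reads scaled by gene length in kilobases and by library depth in megareads. All 9 had a mean of at least 1 FPKM in both experiments and were tested. The cells were BV2, a mouse microglial line immortalised by retroviral oncogenes, grown without further treatment. In 1 experiment Spi1, the gene of PU.1, was knocked down by transient short hairpin RNA and compared with a scrambled control. In the other, mouse PU.1 was overexpressed transiently from a cDNA and compared with an empty frame control. Cells of all groups were sorted by flow cytometry, and each of the 4 groups has 3 libraries of polyA RNA. The design asks how these genes respond to less and to more Spi1. Every group is 1 cell line in culture, and the labels leave unsaid whether its 3 libraries were independent cultures. The p-values below therefore refer to variation among libraries, part or all of which may be technical.

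PU.1 is an ETS factor that opens enhancers in myeloid cells, and it does so together with other factors whose sites lie beside its own. RUNX1, which binds DNA with its partner CBFB, is needed for blood stem cells to form and acts on the Spi1 gene itself. MAF restrains the self-renewal of mature macrophages, MEF2 factors and the KLF zinc finger factors set how strongly macrophages respond to inflammatory signals, the MiT/TFE factors (MITF, TFEB, TFE3 and TFEC) bind E-boxes of lysosomal and osteoclast genes, and BHLHE40 is an E-box repressor with a place in the circadian clock and in cytokine control.

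Library depth, recovered from the steps in the values, was 22.3 to 33.1 megareads on genes. Spi1 itself had 50.9, 42.4 and 52.3 FPKM in the knockdown libraries, against 159, 169 and 168 FPKM in the scrambled controls, and its log2 fold change was -1.75 ± 0.0891 (SE, limma, adjusted p = 0.000697). It had 287, 224 and 206 FPKM in overexpression, against 158, 117 and 131 FPKM in the empty controls, a log2 fold change of 0.81 ± 0.165 that did not pass over all genes without the replicate number as a block (adjusted p = 0.9999) and passed with it (0.0357). Of 14 microglial and macrophage markers, 11 averaged at least 1 FPKM, and Sall1, a defining gene of brain microglia, was at 0 in all 12 libraries. Their summed level was 1985 to 2199 FPKM in knockdown and 2350 to 2496 FPKM in scrambled controls, and it was 2124 to 2410 FPKM in overexpression and 2146 to 2430 FPKM in empty controls; its part in the results was not tested. Among markers of other cell types only Kdr and Flt1 (endothelial), Lck (T cell) and S100a8 (neutrophil) reached a mean of 1 FPKM. The summed endothelial markers had 115 to 120 FPKM in knockdown and 90.5 to 91.2 FPKM in scrambled controls, with Emcn at 0. The T cell markers summed to 2.496 to 3.0 FPKM in knockdown and 3.46 to 4.09 FPKM in scrambled controls, with Cd3e and Cd3g at 0, and the neutrophil markers to 2.17 to 2.86 FPKM in knockdown and 2.99 to 5.31 FPKM in scrambled controls, with S100a9 at 0. None of these ranges overlapped in the knockdown experiment, and their part in the results was not tested. The melanocyte genes Tyr, Tyrp1 and Dct, which MITF drives in pigment cells, were at 0. In bulk libraries fewer cells with a transcript and less transcript per cell cannot be told apart.

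In mm10 (GENCODE M21) the genes lie at chr16:92601466-92826149 (Runx1, minus strand), chr8:115682942-115707794 (Maf, minus), chr7:67231163-67372858 (Mef2a, minus), chr13:83504034-83667080 (Mef2c, plus), chr8:72319033-72321656 (Klf2, plus), chr13:5861482-5870394 (Klf6, plus), chr6:16833373-16898441 (Tfec, minus), chr6:97807052-98021349 (Mitf, plus) and chr6:108660629-108666925 (Bhlhe40, plus). The library kit does not mark strand, so reads over shared exon bases cannot be assigned between a gene and its neighbour on the other strand. Such bases number 106 for Runx1 (Gm26626), 440 for Maf (Gm15655), 302 for Mef2a (Lysmd4) and 118 for Bhlhe40 (0610040F04Rik), and there are 0 for the other genes. RefSeq promoter windows (GRCm38.p6) of 250 bases before a start were found for 7 of the 9 genes, 12 windows in all. They were searched on both strands for GAGGAA (reverse TTCCTC), the core of PU.1 sites, TGTGGT (reverse ACCACA), the RUNX core, and CACGTG, the E-box of MiT/TFE factors and BHLHE40. Of 32817 windows of this length, 23.3% hold GAGGAA, 14% hold TGTGGT and 6.02% hold CACGTG, and among the 12 windows of these genes 4, 2 and 2 do. Those with GAGGAA belong to Mef2a, Mef2c and Runx1, those with TGTGGT to Mitf and Tfec, and those with CACGTG to Klf6 and Runx1. Of these genes Mef2a, Runx1 and Mitf were not called in knockdown.

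The windows below belong to Mef2c, Tfec and Klf6, the 3 genes whose change in knockdown was called whichever single library was left out. Each is given 5′ to 3′ on the strand of its gene, with matches in capitals, and none holds more than 1 match. At the first Mef2c start (chr13:83503784-83504033, plus) GAGGAA begins 122 bases before the start, and at the second (chr13:83523406-83523655, plus) 186 bases before it, while the window of the third start has no match. The Tfec window (chr6:16898442-16898691, minus) has the reverse of TGTGGT beginning 221 bases before the start. The Klf6 window (chr13:5861239-5861488, plus) has CACGTG beginning 43 bases before the start. These letters are descriptions of the windows and say nothing of whether a factor binds there.
Mef2c, first start: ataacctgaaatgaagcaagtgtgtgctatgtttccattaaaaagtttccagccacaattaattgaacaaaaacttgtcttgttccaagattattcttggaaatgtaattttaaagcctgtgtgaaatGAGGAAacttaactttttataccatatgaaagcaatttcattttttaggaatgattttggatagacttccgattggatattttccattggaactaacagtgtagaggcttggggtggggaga
Mef2c, second start: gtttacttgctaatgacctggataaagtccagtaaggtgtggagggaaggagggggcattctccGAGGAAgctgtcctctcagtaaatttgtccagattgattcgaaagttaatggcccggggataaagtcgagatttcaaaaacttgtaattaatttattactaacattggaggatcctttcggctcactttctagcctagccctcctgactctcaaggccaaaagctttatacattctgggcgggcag
Tfec: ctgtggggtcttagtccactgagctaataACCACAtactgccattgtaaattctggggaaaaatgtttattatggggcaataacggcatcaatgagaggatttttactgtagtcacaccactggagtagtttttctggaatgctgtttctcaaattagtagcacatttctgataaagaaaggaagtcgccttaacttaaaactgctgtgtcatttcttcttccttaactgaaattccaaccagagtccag
Klf6: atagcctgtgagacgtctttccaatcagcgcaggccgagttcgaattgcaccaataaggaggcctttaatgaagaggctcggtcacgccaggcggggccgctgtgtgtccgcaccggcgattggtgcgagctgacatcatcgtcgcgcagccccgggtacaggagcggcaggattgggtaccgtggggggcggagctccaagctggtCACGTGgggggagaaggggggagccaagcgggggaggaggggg

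When Spi1 was knocked down, Mef2c and Klf2 rose and Klf6, Tfec and Maf fell, while Runx1, Mef2a, Mitf and Bhlhe40 did not pass the test. The groups did not overlap for 6 of the 9 genes (45.4% of all tested genes), 2 of them above the controls (30.3%) and 4 below (15.1%). The 5 called genes of 9 stand beside a background of 26.3% of 11214 tested genes called at a BH adjusted p under 0.05. In the higher direction 2 of the 9 were called, against 17.4% of all genes, and in the lower direction 3 of the 9, against 8.86%. Under median-of-ratios scaling the calls over all genes split into 1251 higher and 1454 lower, in place of 1952 higher and 993 lower, and 4 of the 9 genes were called, against 24.1% of all genes. The median log2 fold change of the 9 was -0.09, and that of all tested genes was 0.07. With the replicate number as a block, which raised the called share of all genes to 45.3% (30.6% higher and 14.7% lower), the same 5 of the 9 genes were called. The counts of gene lists given below stand against these same shares of all genes and the same median.

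**Figure D1:**
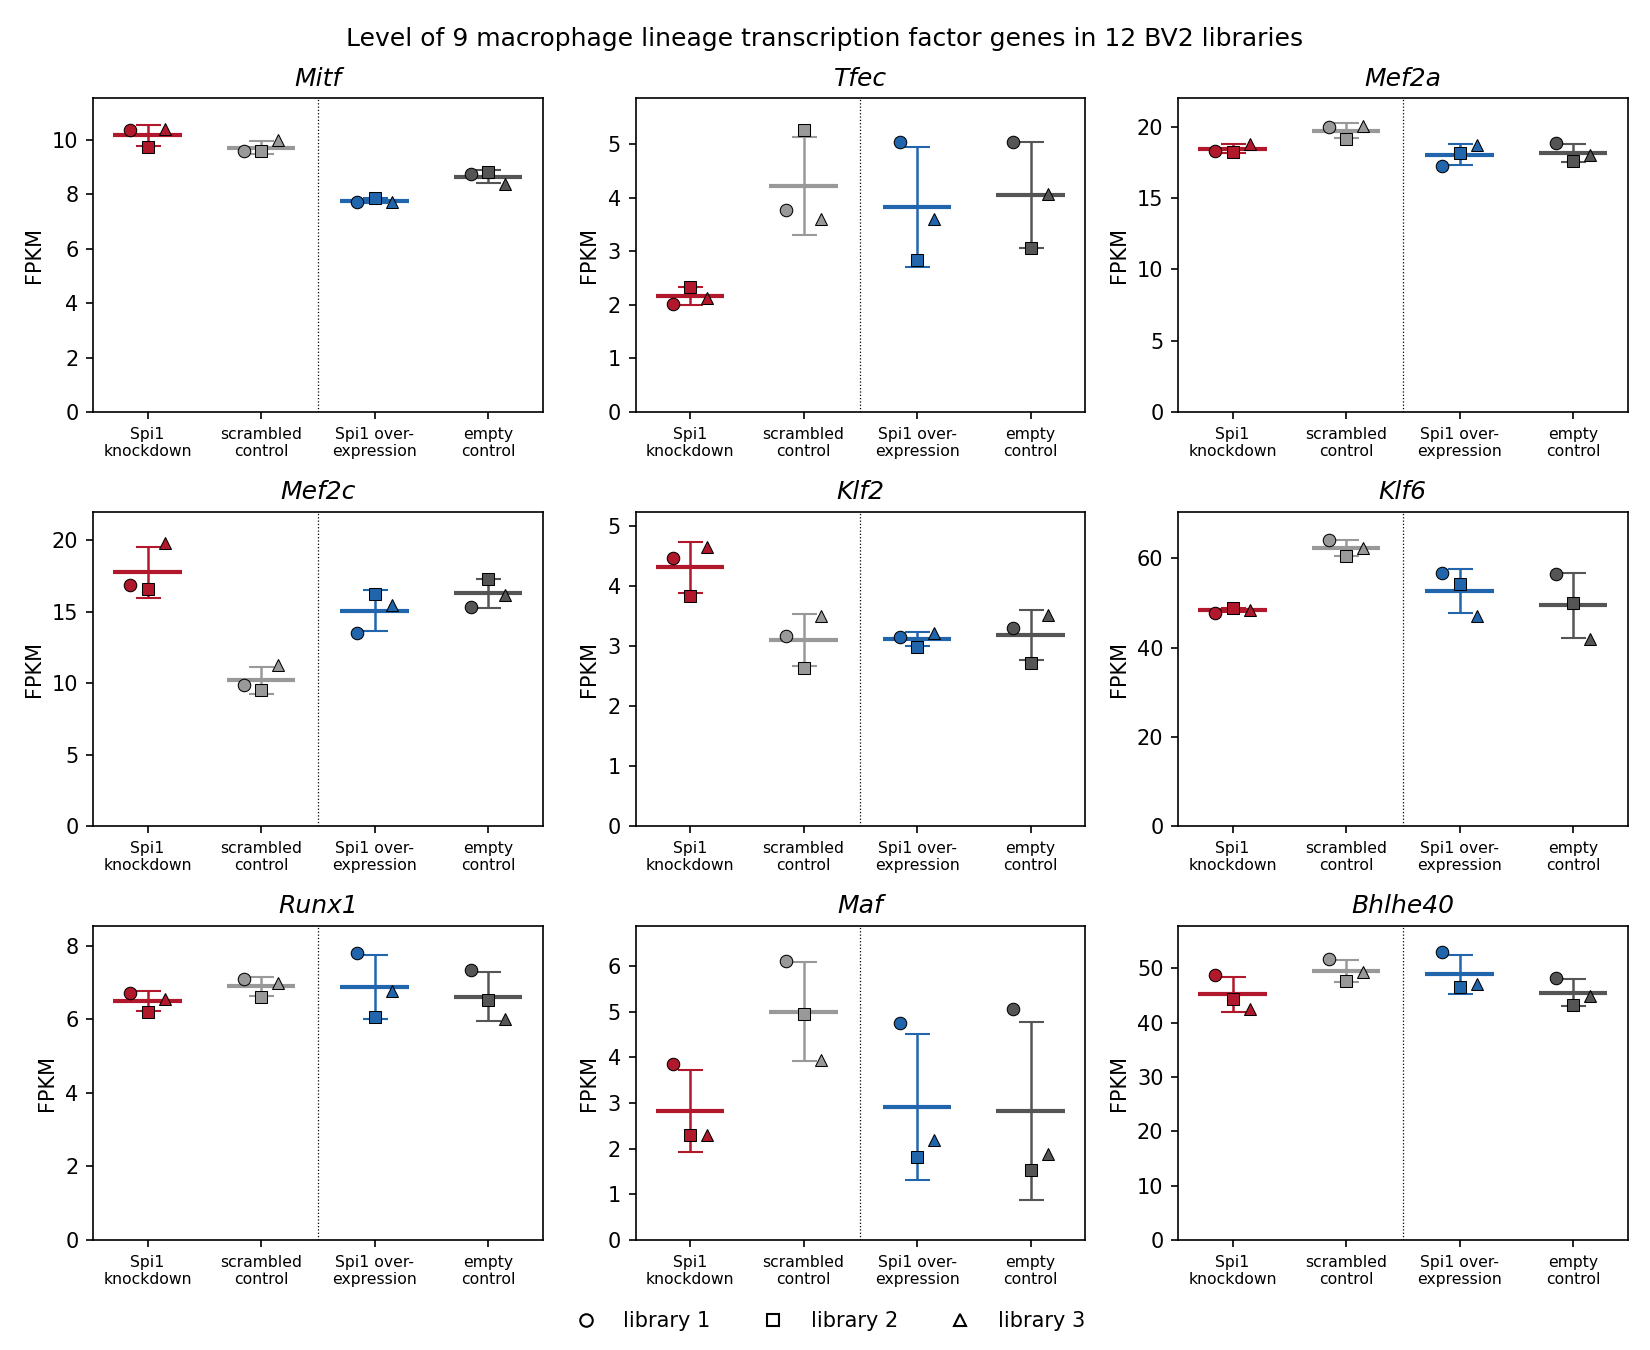
FPKM of the 9 genes (vertical axes, each from 0) in the 12 libraries, with the 3 libraries of a group as points, their mean as a bar and 1 SD as whiskers. Mef2c lies at 16.6 to 19.8 FPKM in knockdown, above the 9.50 to 11.2 FPKM of the scrambled controls, and Tfec lies at 2.01 to 2.34 FPKM in knockdown, below 3.59 to 5.26 FPKM.

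Mef2c encodes a MADS-box factor that in mice restrains inflammatory responses of microglia. Mef2c had 16.8, 16.6 and 19.8 FPKM in the knockdown libraries, against 9.85, 9.50 and 11.2 FPKM in the scrambled controls. All 3 knockdown values lay above all 3 control values. The ratio of the means was 1.74, and the log2 fold change on the log2(FPKM + 1) scale was 0.74 ± 0.0932 (SE; adjusted p = 0.0036, and 0.000491 to 0.0437 over 17 alternatives). The mean was 17.8 ± 1.8 FPKM in knockdown and 10.2 ± 0.924 FPKM in scrambled controls (SD, n = 3 each), with 1532 to 4302 reads behind each value.

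Mef2a, a close relative that binds the same sites, had 18.3, 18.2 and 18.8 FPKM in knockdown, against 19.97, 19.2 and 20.1 FPKM in the scrambled controls. Its knockdown values lay below the controls without overlap, but the log2 fold change of -0.09 was not called (95% interval -0.23 to 0.04, adjusted p = 0.266). Mef2d had 40.9, 43.7 and 42.0 FPKM in knockdown, against 34.6, 39.7 and 33.8 FPKM in the scrambled controls, a log2 fold change of 0.23 that passed with the replicate block only (adjusted p = 0.0686 without, 0.0222 with). The fourth member of the family, Mef2b, averaged 0.287 ± 0.176 FPKM in knockdown and 0.271 ± 0.164 FPKM in scrambled controls (SD, n = 3 each) and was too low to test. Per length, Mef2d was the most abundant member, and in the scrambled controls Mef2a was higher than Mef2c in all 3 libraries.

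Among 11 tested regulators of MEF2 proteins, 3 rose and none fell in knockdown. That is 27.3%, close to the 26.3% of all genes called in either direction, and the median log2 fold change of the 11 was 0.02, against 0.07 for all genes. Hdac9, a class IIa deacetylase that binds MEF2 proteins and keeps their targets silent, had 3.45, 3.55 and 3.35 FPKM in knockdown, against 1.48, 1.049 and 1.25 FPKM in scrambled controls (log2 fold change 0.98 ± 0.0804, adjusted p = 0.00138). Hdac9 is also listed as a MEF2 target. Camk2d, a calcium-dependent kinase of the family that drives these deacetylases out of the nucleus, rose with a log2 fold change of 0.32 ± 0.0576 (adjusted p = 0.00958). Hdac5 was called at 0.26 (adjusted p = 0.0435), a call that was lost in 5 of 6 fits without 1 library, namely those without knockdown 1, 2 or 3 or scrambled control 1 or 2 (adjusted p 0.0678 to 0.137). Among 6 tested MEF2 targets, 3 rose (Hdac9, Klf2 and Nr4a1) and none fell, with a median log2 fold change of 0.31. Nr4a1, an orphan nuclear receptor, was called at 0.42 (adjusted p = 0.0299) and not called without knockdown 2 or 3 or without any of the 3 scrambled controls (adjusted p 0.0547 to 0.0741).

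The fall of Tfec and the level of Mitf contrast within the MiT/TFE family. Tfec, whose expression is largely limited to macrophages and osteoclasts, had 2.01, 2.34 and 2.13 FPKM in knockdown, against 3.77, 5.26 and 3.59 FPKM in scrambled controls. The groups did not overlap, and the log2 fold change was -0.71 ± 0.121 (adjusted p = 0.00786, and 0.00401 to 0.0562 over 16 alternatives). These values rest on 95 to 230 reads a library, so counting alone gave an SD of 9.52% in knockdown and 7.33% in scrambled controls, beside a measured SD of 7.76% and 21.7%.

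Mitf had 10.4, 9.73 and 10.4 FPKM in knockdown, against 9.57, 9.58 and 9.98 FPKM in scrambled controls. The groups overlapped, and the log2 fold change of 0.06 was not called (95% interval -0.08 to 0.20, adjusted p = 0.489) and changed sign to -0.02 under median-of-ratios scaling. Tfe3 fell, with 10.9, 11.8 and 11.4 FPKM in knockdown, against 15.4, 15.7 and 15.2 FPKM in scrambled controls (log2 fold change -0.41 ± 0.059, adjusted p = 0.00474). Tfeb had 6.06, 5.69 and 5.84 FPKM in knockdown, against 4.67, 4.15 and 5.37 FPKM in scrambled controls, and its log2 fold change of 0.27 was called with the replicate block only (adjusted p = 0.0585 without, 0.0289 with). So the family held 2 called falls, and 2 genes whose values were higher in knockdown without passing.

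MiT/TFE proteins are held at the lysosome by Rag GTPases and kept in the cytosol by 14-3-3 proteins. Of 21 tested genes of this machinery, 3 fell and 1 rose in knockdown, a share of 19% beside 26.3% of all genes. With the replicate block 5 fell and 3 rose, beside 45.3% of all genes called. The median log2 fold change was -0.04. Rragc, the Rag subunit that holds the factors at the lysosome, had 55.2, 54.4 and 51.8 FPKM in knockdown, against 69.3, 77.6 and 75.2 FPKM in scrambled controls (log2 fold change -0.45 ± 0.0675, adjusted p = 0.00525). Fnip1, a partner of folliculin, which switches the Rag GTPases, fell with a log2 fold change of -0.33 ± 0.0579 (adjusted p = 0.0084). The 14-3-3 genes went opposite ways, with Ywhag at -0.38 (adjusted p = 0.0194) and Ywhaq at 0.25 (adjusted p = 0.02). Ywhag was not called without knockdown 1 or 3 (adjusted p 0.0504 and 0.0696), nor was Ywhaq without knockdown 1, 2 or 3 or scrambled control 2 (adjusted p 0.0521 to 0.0625). Flcn, folliculin itself, stood at -0.19 (adjusted p = 0.0562), and Mcoln1, a lysosomal calcium channel that is both in this machinery and a target, at -0.21 (adjusted p = 0.0646). Both passed with the block (adjusted p 0.0305 for Flcn and 0.0165 for Mcoln1).

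Of 18 tested genes known as targets of MITF, TFE3 or TFEC in macrophages and osteoclasts, 5 fell and 1 rose in knockdown (10 and 1 with the block), with a median log2 fold change of -0.20. Ctsk, the bone-degrading protease cathepsin K, had 491, 449 and 358 FPKM in knockdown, against 853, 897 and 778 FPKM in scrambled controls (log2 fold change -0.97 ± 0.122, adjusted p = 0.0036). Ostm1, the subunit of a lysosomal chloride transporter whose loss causes osteopetrosis, fell by 0.77 on the log2 scale (adjusted p = 0.00177). Dcstamp, a membrane protein of osteoclast fusion, fell by 0.71 (adjusted p = 0.00915). Ctsd, the abundant lysosomal protease cathepsin D, had a log2 fold change of -0.53 (adjusted p = 0.014), which was 0.0514 without knockdown 3.

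Klf2 and Klf6 moved in opposite directions. Klf2, which in mouse myeloid cells and endothelium damps inflammatory genes, had 4.48, 3.84 and 4.65 FPKM in knockdown, against 3.16, 2.64 and 3.50 FPKM in scrambled controls. The groups did not overlap, on 118 to 279 reads a library, and the log2 fold change was 0.38 ± 0.0984 (adjusted p = 0.0298, and 0.005 to 0.142 over 16 alternatives). The call was lost without knockdown 1 (adjusted p = 0.0822) or 3 (0.1002), without scrambled control 1 (0.0626) or 2 (0.0710), under median-of-ratios scaling (0.0545) and with no filter on low values (0.0610).

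Klf6, which in macrophages raises inflammatory genes, was among the more abundant of the 9. It had 47.8, 48.8 and 48.5 FPKM in knockdown, against 64.0, 60.6 and 62.4 FPKM in scrambled controls, without overlap, and its knockdown group had the smallest relative spread among the knockdown groups of the 9 (SD of 1.053% of the mean, against 2.78% in scrambled controls). The mean fell to 48.4 ± 0.509 FPKM in knockdown, against 62.3 ± 1.73 FPKM in scrambled controls (SD, n = 3 each). Its log2 fold change was -0.36 ± 0.0569 (adjusted p = 0.00636, and 0.00214 to 0.0768 over 17 alternatives).

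The KLF and SP family had 11 tested genes, of which 4 rose and 1 fell in knockdown, with a median log2 fold change of 0.15. Klf3, a repressor of the family, had 5.45, 5.15 and 5.09 FPKM in knockdown, against 3.91, 3.03 and 2.64 FPKM in scrambled controls (log2 fold change 0.58 ± 0.109, adjusted p = 0.0106). Klf9, a glucocorticoid-induced member, was called at 0.29 (adjusted p = 0.0283) and not called without knockdown 1 or 3 or any of the 3 scrambled controls (adjusted p 0.0627 to 0.0936). Klf13 stood at -0.22 (adjusted p = 0.0831, and 0.0305 with the block) and Sp1 at 0.17 (adjusted p = 0.138, and 0.0437 with the block). Of 7 tested genes listed as KLF2 targets 2 rose and none fell (4 and 0 with the block), a share of 28.6% beside 26.3% of all genes, with a median log2 fold change of 0.14. They were Kdr, also 1 of the endothelial markers and a growth factor receptor gene that KLF2 represses in endothelial cells (log2 fold change 0.37 ± 0.0617, adjusted p = 0.00737), and Thbd, the anticoagulant thrombomodulin, at 0.22 (adjusted p = 0.0314), whose call was lost without any 1 of the 6 libraries (adjusted p 0.0582 to 0.107).

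Genes listed as KLF6 targets in macrophages are inflammatory genes, and of 8 tested 4 fell and none rose in knockdown (7 and 0 with the block), with a median log2 fold change of -0.71. Cxcl2, a neutrophil chemokine, had 19.9, 30.2 and 29.2 FPKM in knockdown, against 62.3, 75.2 and 63.5 FPKM in scrambled controls (log2 fold change -1.33 ± 0.159, adjusted p = 0.00319). Ccl2, a monocyte chemokine, had 689, 742 and 710 FPKM in knockdown, against 1417, 1488 and 1160 FPKM in scrambled controls (log2 fold change -0.92 ± 0.0999, adjusted p = 0.00261). Nos2, inducible nitric oxide synthase, varied more: it had 35.8, 10.995 and 20.01 FPKM in knockdown, against 149, 59.1 and 53.6 FPKM in scrambled controls. Its log2 fold change of -1.91 was called at an adjusted p of 0.028 and was not called without knockdown 2 (0.0733), knockdown 3 (0.0797) or scrambled control 1 (0.0605). Ptgs2, the prostaglandin synthase, was called at -0.78 (adjusted p = 0.0168), which became 0.0507 without knockdown 3. These genes are induced by several inflammatory pathways, and the list is not specific to KLF6. For these 4 genes the scrambled controls lay farther than knockdown from the empty controls of the other experiment. On the log2 scale, knockdown lay 0.20 (Ccl2), -0.06 (Cxcl2), -0.02 (Nos2) and 0.21 (Ptgs2) from these empty controls, and the scrambled controls lay 1.11 (Ccl2), 1.27 (Cxcl2), 1.89 (Nos2) and 0.98 (Ptgs2) from them. Overexpression lay 0.58 (Ccl2), 0.65 (Cxcl2), 0.45 (Nos2) and -0.03 (Ptgs2) from them. For Ccl2 the overexpression libraries (1434, 456 and 1239 FPKM) overlapped with the scrambled controls, and the empty controls had 1126, 238 and 900 FPKM.

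**Figure D2:**
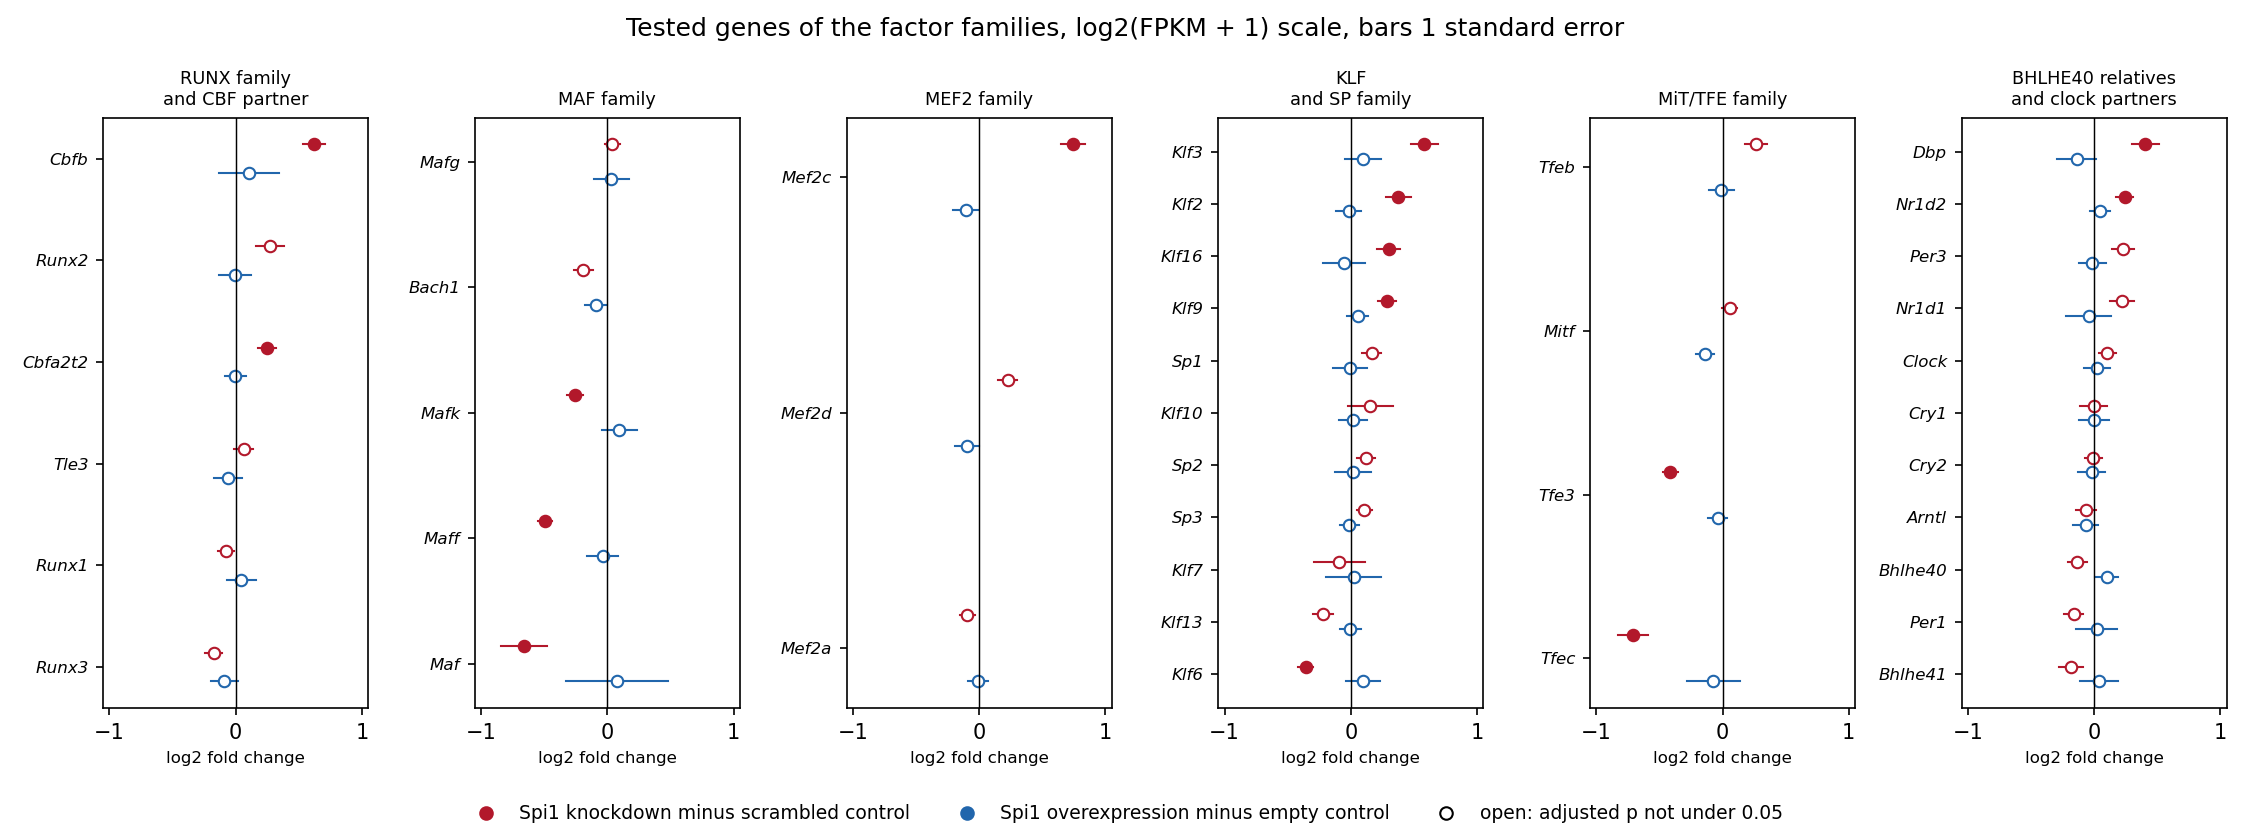
Log2 fold change with 1 standard error (horizontal axes) of each tested gene in the families of the 9 factors, red for Spi1 knockdown minus scrambled control and blue for Spi1 overexpression minus empty control, filled where the adjusted p is under 0.05. Filled points appear in knockdown only, among them Mef2c at 0.74 and Tfec at -0.71, and all overexpression points are open.

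Maf, the large bZIP factor c-MAF, had the widest spread of the 9. It had 3.85, 2.31 and 2.29 FPKM in knockdown, against 6.11, 4.94 and 3.94 FPKM in scrambled controls. The groups did not overlap, but the highest knockdown value lay just under the lowest control value, and library 1 was the highest of its group in both. The log2 fold change was -0.66 ± 0.184 (adjusted p = 0.0369, and 0.00468 to 0.194 over 16 alternatives), and each knockdown library lay below the control with its own number, at ratios of 0.631, 0.467 and 0.582. The call was lost without knockdown 2 (adjusted p = 0.108) or 3 (0.117), without scrambled control 1 (0.0985) or 2 (0.0764), and with no filter on low values (0.0957).

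Of 5 genes of the MAF family and its BACH partners that were tested here, 3 fell and none rose, Maf among those that fell, and the median log2 fold change was -0.26. Maff, a small MAF protein that lacks an activation domain, had 11.7, 11.4 and 11.6 FPKM in knockdown, against 16.8, 16.8 and 16.6 FPKM in scrambled controls (log2 fold change -0.49 ± 0.0549, adjusted p = 0.00277). Mafk, another small MAF protein, was called at -0.26 (adjusted p = 0.0214) and not called without knockdown 1 or 3 or scrambled control 2 or 3 (adjusted p 0.0601 to 0.0714). Mafg, the third small MAF gene, had 33.5, 34.4 and 35.0 FPKM in knockdown, against 33.2, 34.8 and 32.1 FPKM in scrambled controls, and its log2 fold change of 0.04 did not pass (adjusted p = 0.665). Bach1, a haem-sensing repressor that pairs with small MAF proteins, stood at -0.19 (adjusted p = 0.1, and 0.0388 with the block).

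Of 7 tested genes listed as targets of MAF factors in macrophages, 2 fell and 1 rose, with a median log2 fold change of -0.18. Msr1, the class A scavenger receptor, had 19.5, 15.4 and 18.3 FPKM in knockdown, against 41.1, 36.9 and 36.7 FPKM in scrambled controls (log2 fold change -1.07 ± 0.0973, adjusted p = 0.0015). C1qc, a chain of complement C1q, fell by 0.44 on the log2 scale (adjusted p = 0.00923). Axl, a receptor for dying cells, was called at 0.77 (adjusted p = 0.0377), from 3.52, 1.43 and 1.83 FPKM in knockdown, against 0.939, 0.616 and 0.992 FPKM in scrambled controls, and was not called without knockdown 3 or without any of the 3 scrambled controls (adjusted p 0.0639 to 0.0926). Mrc1, the mannose receptor, had 2.66, 0.487 and 0.762 FPKM in knockdown, against 5.45, 1.79 and 2.48 FPKM in scrambled controls. Its libraries numbered 1 stood apart in both groups, and its log2 fold change of -0.90 passed with the block only (adjusted p = 0.135 without, 0.00324 with).

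Runx1 had 6.72, 6.21 and 6.56 FPKM in knockdown, against 7.09, 6.60 and 6.99 FPKM in scrambled controls. The groups overlapped, and the log2 fold change of -0.07 was not called (95% interval -0.22 to 0.07, adjusted p = 0.4). Each knockdown library lay below the control with its own number, at ratios of 0.938 to 0.949, and the block did not change the call (adjusted p = 0.184). Its binding partner Cbfb rose, with 41.4, 46.2 and 42.0 FPKM in knockdown, against 25.0, 29.0 and 29.4 FPKM in scrambled controls (log2 fold change 0.62 ± 0.0836, adjusted p = 0.004). Of the other RUNX genes, Runx3 stood at -0.18 (adjusted p = 0.0886) and Runx2 at 0.28 (adjusted p = 0.107, and 0.00891 with the block). Cbfa2t2, a corepressor of the ETO family, was called at 0.25 (adjusted p = 0.0398), a call lost without any 1 of the 6 libraries (adjusted p 0.0503 to 0.113).

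Of 6 tested genes listed as RUNX1 targets in myeloid cells, 2 rose and 2 fell, Spi1 itself, the gene knocked down, being 1 of those that fell. Without it 2 of 5 rose and 1 fell, with a median log2 fold change of -0.15. Csf1r, the receptor that microglia need to survive, had 47.8, 49.6 and 45.3 FPKM in knockdown, against 71.0, 90.8 and 77.6 FPKM in scrambled controls (log2 fold change -0.73 ± 0.0967, adjusted p = 0.00396). Csf1, which encodes a ligand of that receptor, rose, with 121, 135 and 109 FPKM in knockdown, against 73.4, 90.0 and 73.7 FPKM in scrambled controls (log2 fold change 0.61 ± 0.111, adjusted p = 0.00938). Itgal, an integrin chain, stood at -0.31 (adjusted p = 0.0755, and 0.00891 with the block).

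Bhlhe40 had 48.8, 44.3 and 42.4 FPKM in knockdown, against 51.7, 47.7 and 49.3 FPKM in scrambled controls. The ranges overlapped, and the log2 fold change of -0.13 was not called (95% interval -0.30 to 0.04, adjusted p = 0.216, and 0.0748 with the block). Its paralogue Bhlhe41 stood at -0.18 (adjusted p = 0.182). Of 11 tested relatives and clock partners 2 were called, both higher (4 with the block), a share of 18.2% beside 17.4% of all genes called higher, and the median log2 fold change was -0.005. They were Dbp at 0.40 (adjusted p = 0.0307) and Nr1d2, a repressor of the clock, at 0.24 (adjusted p = 0.0421). Neither kept its call when single libraries were left out: Dbp lost it in all but the fit without scrambled control 3 (adjusted p 0.0612 to 0.0925) and Nr1d2 in all but the fit without scrambled control 1 (0.0875 to 0.120). Of 7 tested genes listed as BHLHE40 targets, with a median log2 fold change of -0.18, 3 fell and none rose, namely Maf, Trim2 at -0.34 (adjusted p = 0.00935) and Pmaip1, which encodes the death-promoting protein NOXA, at -0.60 (adjusted p = 0.0193). Pmaip1 was not called without knockdown 1 (0.0542) or 2 (0.0597).

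Among 25 tested genes in a list of other macrophage lineage factors, 5 rose and 2 fell in knockdown, and 9 rose and 6 fell with the block. 1 of the falls was Spi1, the gene knocked down. Without it 6 of 24 were called (25%, beside 26.3% of all genes), with a median log2 fold change of 0.04. Tfap4, a bHLH factor, had 10.1, 11.3 and 9.31 FPKM in knockdown, against 6.17, 7.57 and 6.46 FPKM in scrambled controls (log2 fold change 0.54 ± 0.0956, adjusted p = 0.00884). Cebpa, the C/EBP factor that works with PU.1 in granulocyte and macrophage progenitors, had 8.90, 8.91 and 8.56 FPKM in knockdown, against 6.91, 7.14 and 6.65 FPKM in scrambled controls (log2 fold change 0.31 ± 0.0587, adjusted p = 0.011). Smad3 stood at 0.29 (adjusted p = 0.0526) and Ets2, another ETS factor, at -0.24 (adjusted p = 0.0529). Both passed with the block (adjusted p 0.0381 for Smad3 and 0.0138 for Ets2).

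**Figure D3:**
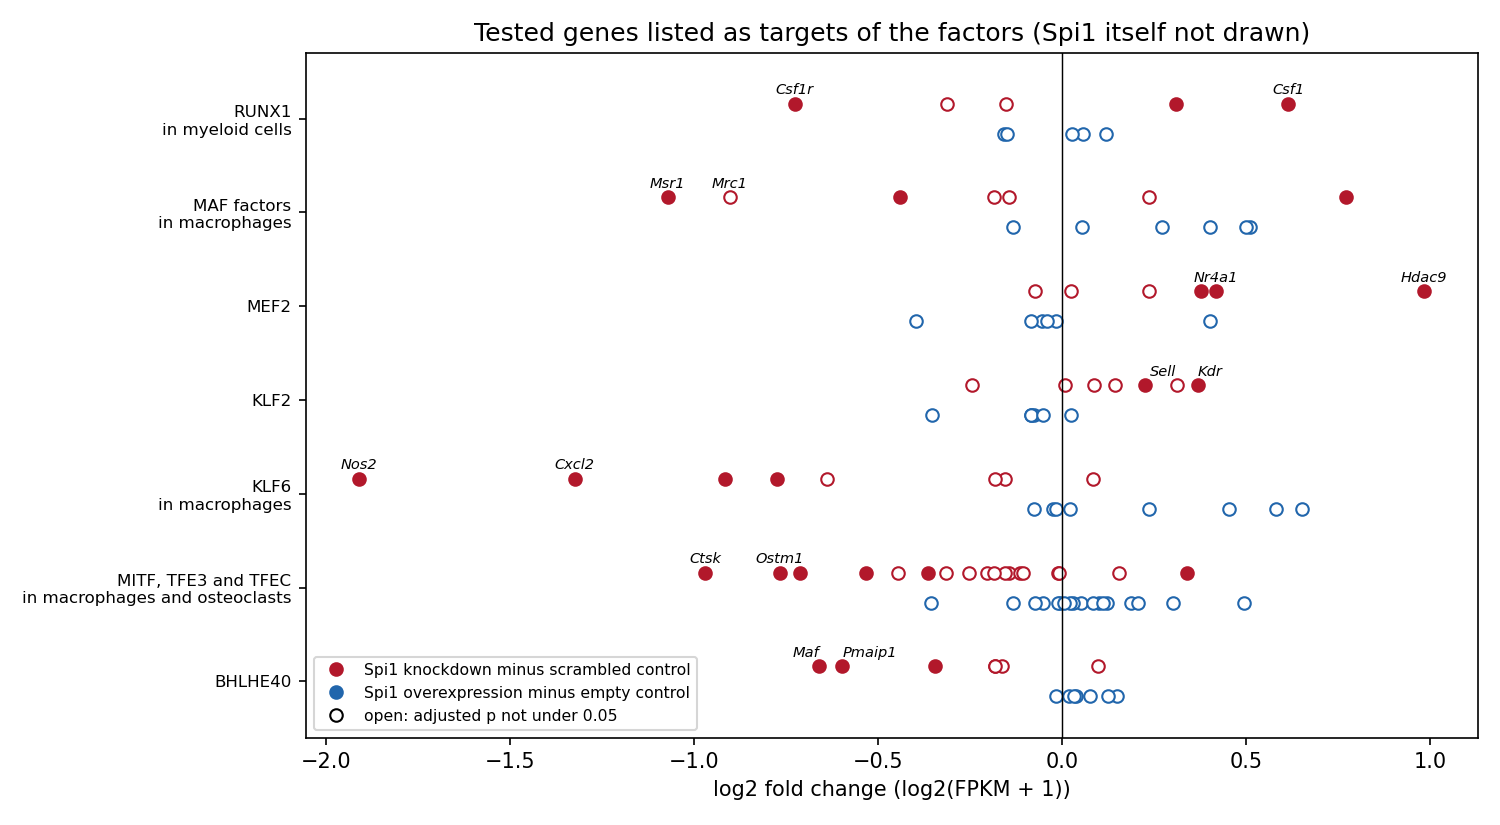
Log2 fold change (horizontal axis) of each tested gene in the 7 target lists, red for Spi1 knockdown minus scrambled control and blue for Spi1 overexpression minus empty control, filled where the adjusted p is under 0.05, with the 2 genes of largest size in knockdown named per list. Cxcl2 at -1.33 and Msr1 at -1.07 lie far to the left and Hdac9 at 0.98 far to the right, and no overexpression point is filled.

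When Spi1 was overexpressed, none of the 9 genes was called and none had an unadjusted p under 0.05. The background is 0% called, since limma called 0 of 11217 tested genes at an adjusted p under 0.05, with 122 at an unadjusted p under 0.05, and limma-voom on recovered reads called 0, with 94. With the replicate block 13 genes (0.116%) were called, Spi1 among them. In that fit 2 of the 9 genes had an unadjusted p under 0.05, beside 1577 of 11217 tested genes. The 9 genes had a median log2 fold change of -0.01, the same as that of all tested genes.

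Mitf was the member whose overexpression and empty control libraries did not overlap, which held for 4.06% of tested genes (2.40% in the lower direction). It had 7.71, 7.87 and 7.71 FPKM in overexpression, against 8.76, 8.81 and 8.36 FPKM in empty controls, a log2 fold change of -0.14 ± 0.0739 (95% interval -0.32 to 0.04, adjusted p = 0.9999, and 0.267 with the block). Mef2c had 13.5, 16.3 and 15.4 FPKM in overexpression, against 15.3, 17.3 and 16.2 FPKM in empty controls. Each of its overexpression libraries lay below the control with its own number, and the log2 fold change was -0.11 (95% interval -0.34 to 0.13). Klf6 had 56.7, 54.2 and 47.1 FPKM in overexpression, against 56.4, 50.1 and 41.9 FPKM in empty controls, and Bhlhe40 had 52.9, 46.5 and 47.2 FPKM in overexpression, against 48.2, 43.3 and 45.0 FPKM in empty controls. Both were higher in overexpression in 3 of 3 pairs of equal number, with log2 fold changes of 0.10 (95% interval -0.23 to 0.42) for Klf6 and 0.10 (-0.12 to 0.32) for Bhlhe40. How many of all genes agree in 3 of 3 pairs was not counted, and neither gene nor Mef2c was called with the block.

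Tfec had 5.03, 2.84 and 3.60 FPKM in overexpression, against 5.03, 3.06 and 4.06 FPKM in empty controls (log2 fold change -0.07, 95% interval -0.58 to 0.43). Maf had 4.75, 1.82 and 2.19 FPKM in overexpression, against 5.07, 1.54 and 1.88 FPKM in empty controls, so that library 1 lay above the other two in both groups. The interval of its log2 fold change, 0.07, therefore ran from -0.89 to 1.04, the widest of the 9. Runx1 had 7.81, 6.07 and 6.76 FPKM in overexpression, against 7.33, 6.52 and 5.999 FPKM in empty controls (0.05, interval -0.23 to 0.33). Mef2a had 17.3, 18.2 and 18.7 FPKM in overexpression, against 18.9, 17.6 and 18.0 FPKM in empty controls (-0.01, interval -0.20 to 0.18). Klf2 had 3.16, 2.99 and 3.22 FPKM in overexpression, against 3.30, 2.72 and 3.52 FPKM in empty controls (-0.02, interval -0.26 to 0.22). These intervals come from the fit without the replicate block, so differences shared by libraries of equal number widen them. They give the changes that this fit leaves possible and do not mark the smallest change that could be called.

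**Figure D4:**
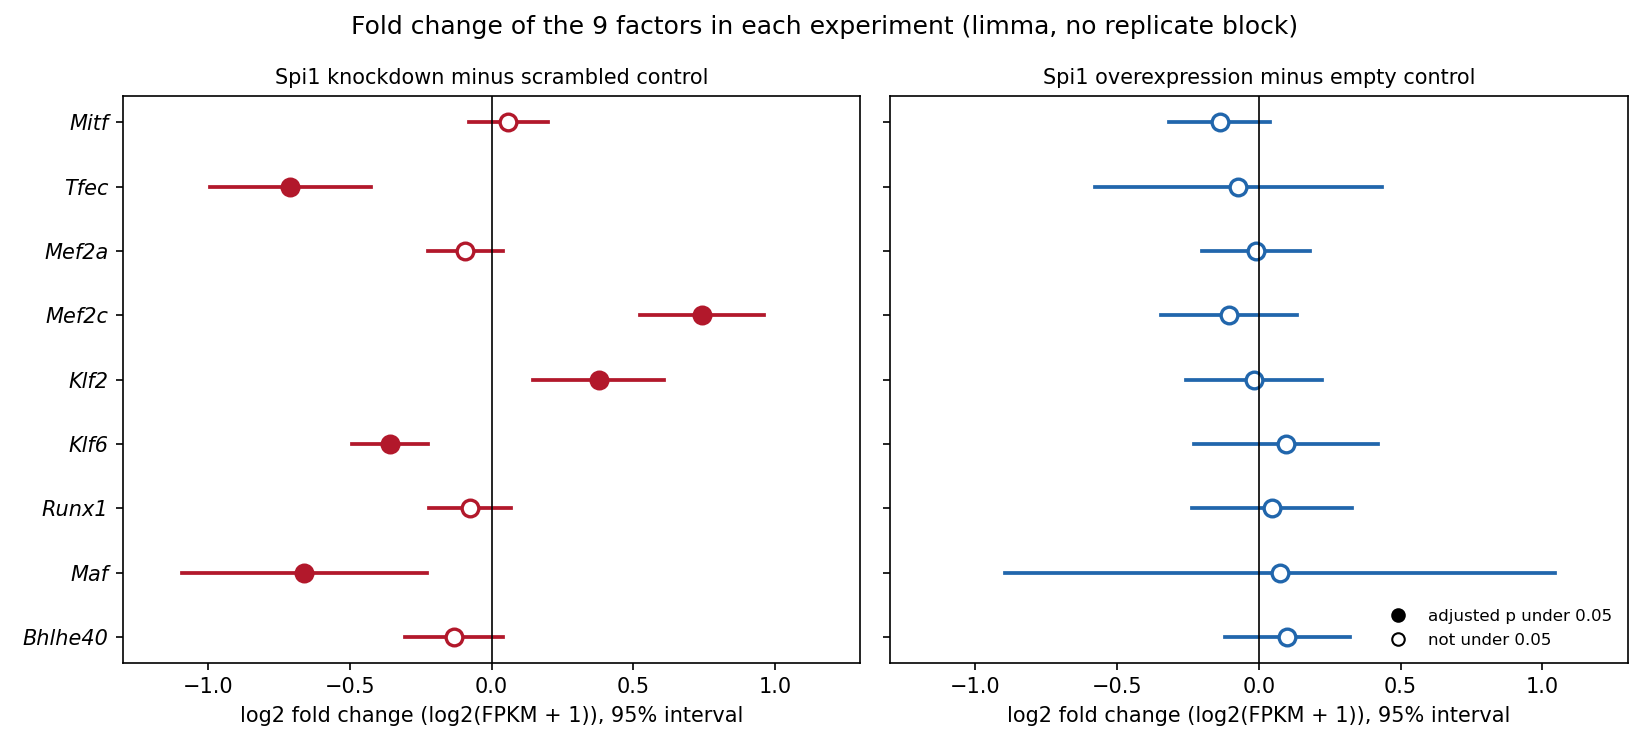
Log2 fold change of the 9 genes with its 95% interval (horizontal axes), Spi1 knockdown minus scrambled control on the left and Spi1 overexpression minus empty control on the right, filled where the adjusted p is under 0.05. In knockdown 5 intervals lie clear of 0, and in overexpression all 9 span it, that of Maf from -0.89 to 1.04.

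The effects of the 2 manipulations were set against each other in 1 fit over the 12 libraries, which share no control. The difference, the overexpression effect minus the knockdown effect, was called for 543 of 11224 genes (4.84%; 1.90% higher, 2.94% lower) and for 1 of the 9, Mef2c, at -0.85 ± 0.138 (adjusted p = 0.0107). It was called in 12 of 12 fits that left out 1 library and not when the same number was left out of all 4 groups (adjusted p 0.135, 0.0773 and 0.144 without number 1, 2 or 3). For the other called genes of knockdown the difference did not pass: it was 0.73 (adjusted p = 0.431) for Maf, 0.64 (0.19) for Tfec, 0.45 (0.107) for Klf6 and -0.39 (0.142) for Klf2. With the replicate block the difference was called for 41.5% of all genes (12.9% higher, 28.6% lower) and for 7 of the 9, higher for Maf, Klf6, Tfec and Bhlhe40 and lower for Mef2c, Klf2 and Mitf. The difference for Runx1 (0.12, adjusted p = 0.652) and Mef2a (0.08, adjusted p = 0.63) was called in neither fit.

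The order of the 4 group levels shows which group stood apart for each gene. The tables are on the same scale, but the experiments were deposited separately, so a shift between experiments, between the scrambled and the empty vector and between their cultures cannot be told apart. For Mef2c the low group was the scrambled control at 10.2 ± 0.924 FPKM, and overexpression (15.1 ± 1.40), empty control (16.3 ± 0.988) and knockdown (17.8 ± 1.8) followed with neighbours that overlapped. On the log2 scale Mef2c in knockdown lay 0.12 from the empty controls, and in scrambled controls -0.63 from them. For Klf6 the scrambled controls were the highest group at 62.3 ± 1.73 FPKM, while knockdown (48.4 ± 0.509), empty control (49.4 ± 7.28) and overexpression (52.7 ± 5.01) overlapped as neighbours. Its knockdown libraries lay -0.02 from the empty controls and its scrambled controls 0.34. For Maf, knockdown lay 0.08 above the empty controls and scrambled controls 0.75, but with an SD of 1.95 FPKM around 2.83 FPKM in empty controls the ranges of all neighbouring groups overlapped. Of the 43 named genes called in knockdown, Spi1 included, 24 had knockdown farther from the empty controls than the scrambled controls were, and 19 had the scrambled controls farther. These genes were mostly picked by their p-value in knockdown. The same split over all called genes was not counted, so it describes the 43 genes only.

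For Tfec and Klf2 the knockdown group stood apart. Tfec was at 2.16 ± 0.168 FPKM in knockdown, and overexpression (3.83 ± 1.11), empty control (4.05 ± 0.989) and scrambled control (4.21 ± 0.915) overlapped. Klf2 was at 4.32 ± 0.425 FPKM in knockdown, and scrambled control (3.10 ± 0.430), overexpression (3.12 ± 0.121) and empty control (3.18 ± 0.417) overlapped. Mitf took a different order, with overexpression (7.76 ± 0.0906), empty control (8.64 ± 0.248) and scrambled control (9.71 ± 0.235) each separate from the next, and knockdown (10.2 ± 0.377) overlapping the last. Mef2a was lowest in overexpression (18.1 ± 0.737), which overlapped with empty control (18.2 ± 0.650), as that did with knockdown (18.5 ± 0.316), and the scrambled control (19.7 ± 0.504) lay above. Runx1 and Bhlhe40 had group means of 6.50 to 6.89 FPKM and 45.2 to 49.6 FPKM, with overlap between all neighbours.

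**Figure D5:**
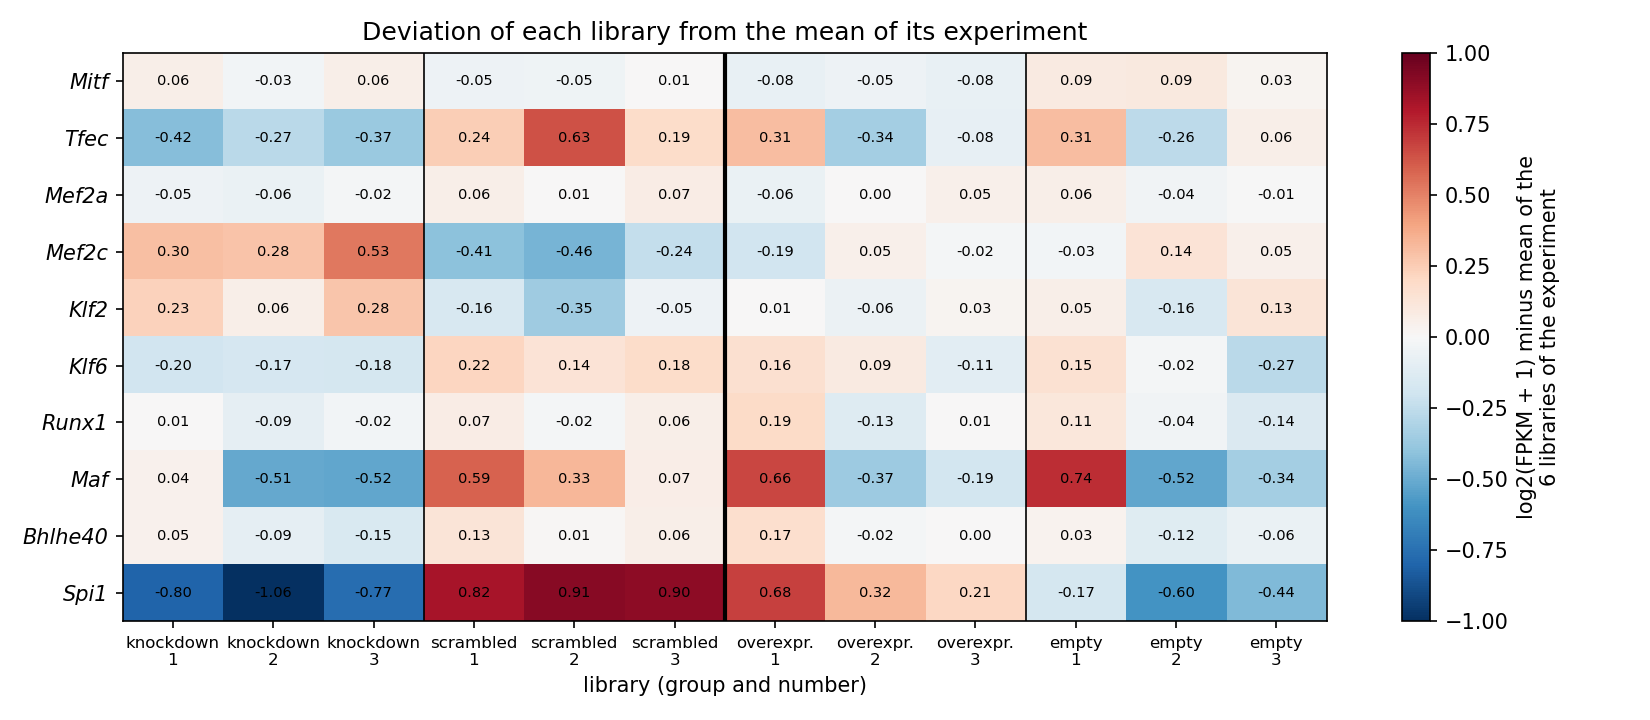
Each library's log2(FPKM + 1) minus the mean of the 6 libraries of its experiment, for the 9 genes and Spi1 (rows) in the 12 libraries (columns), red above and blue below that mean. Mef2c is red in all 3 knockdown libraries and blue in all 3 scrambled controls, and Maf is at 0.66 and 0.74 in the libraries numbered 1 of overexpression and empty control.

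The genes whose levels ran most closely with each factor were found from log2(FPKM + 1) over the 12 libraries, centred on the mean of each experiment, among genes that averaged 5 FPKM or more. These correlations are descriptions over libraries that share groups and depth. Centring by experiment keeps the difference between groups, so genes called in knockdown correlate with each other through that difference. Values for called and uncalled genes are therefore not comparable. Mef2c ran with Adssl1 (Pearson r = 0.981), Tfec with Vps18 (0.982) and Ipo13 (0.979), Klf6 with Akirin1 (0.968) and Rnf149 (0.961), Klf2 with Lsm4 (0.969) and Rabep1 (0.949), and Maf with Met (0.969) and Eaf1 (0.945). Of the genes not called in knockdown, Runx1 ran with Gtf2a1 (0.926) and Srd5a3 (0.914), Bhlhe40 with Cdk9 (0.920) and Sgsm1 (0.897), Mef2a with Pikfyve (0.907) and Ap1s3 (0.864), and Mitf with Setd3 (0.887) and Nsdhl (0.866).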

How the data were processed

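RNA was measured in 12 BV2 libraries, grouped by the treatment labels. PolyA RNA went into TruSeq v2 libraries, per the labels' protocols, which were sequenced from 1 end over 100 bases. What the authors deposited is FPKM, in 2 tables. Without roles, the submitters' processing notes list mm10, DESeq2 1.14, featureCounts, STAR 2.5.2a, bcl2fastq and CASAVA 1.8.2. No source used here gives the annotation or the use of strand, and the unit was read from the values, whose steps gave whole reads for 17836 of 17838 genes above 0 (tolerance 0.002 reads).

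Each experiment was fitted alone by limma (3.58.1, under R 4.3.3) on log2(FPKM + 1), for genes averaging 1 FPKM or more, with Benjamini-Hochberg (BH) adjustment over all of them and a threshold of 0.05. Fold changes on this scale understate changes of low genes. Scaling is to each library's total, so large changes in abundant genes shift the others. The fit was tested on simulated reads drawn independently for each library. That test does not cover differences shared by libraries of equal number. The 4 entries with repeated symbols were left out, and 2 other genes are not reported here. The 9 genes and all gene lists were chosen with earlier results of these data known, and from each list up to 4 called and 2 uncalled genes were named.

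Alternatives were the pseudocount, the filter, median-of-ratios and TPM scaling, trend and robust options, a replicate block and left-out libraries, and, chosen after seeing the data, limma-voom and leaving out a number from every group. The numbers 1 to 3 come from the sample titles. Deviations from group means of libraries with the same number correlated across genes at 0.791, 0.845 and 0.513 (overexpression and empty controls) and at 0.397, 0.540 and 0.345 (knockdown and scrambled controls), all above 0.1. The fit with the replicate block treats the numbers as pairs, and it is given where it changes a call. The main fits, with their standard errors, intervals and left-out libraries, have no block and leave the pairing out.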

Additional observations from a re-analysis of the deposited data

Results flagged for a closer look

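The overexpression effect and the knockdown effect differed by the interaction test over 12 libraries for 10 genes named in the report. Benjamini-Hochberg adjustment was over all tested genes, of which 4.84% were called. Genes were named in part by their p-value in knockdown. The difference holds that same knockdown effect, so the count of 10 is not a separate result. Each value is the overexpression effect minus the knockdown effect on the log2 scale. Spi1, the gene that was manipulated, differed by 2.56 (adjusted p = 0.000331), with effects of 0.81 in overexpression and -1.75 in knockdown. Mef2c differed by -0.85 (adjusted p = 0.0107), with effects of -0.11 in overexpression and 0.74 in knockdown. Its repressor Hdac9 differed by -1.07 (adjusted p = 0.00155), with effects of -0.08 in overexpression and 0.98 in knockdown. Camk2d differed by -0.38 (adjusted p = 0.0484), a call that held in 1 of 12 fits without 1 library. Among inflammatory and scavenger genes, Cxcl2 differed by 1.98 (adjusted p = 0.00266), with effects of 0.65 in overexpression and -1.33 in knockdown, and Msr1 by 1.13 (adjusted p = 0.00782).

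The MiT/TFE family and the genes tied to it gave 3 of these. Their overexpression effects were -0.04 (Tfe3), 0.03 (Ostm1) and -0.007 (Rragc), so the differences mostly restate the knockdown effects of -0.41, -0.77 and -0.45. Tfe3 differed by 0.37 (adjusted p = 0.0356) and was called in 1 of 12 fits without 1 library. The target Ostm1 differed by 0.80 (adjusted p = 0.0204) and was called in 9 of 12, and the Rag subunit Rragc by 0.45 (adjusted p = 0.0283) and was called in 5 of 12. Kdr, listed under KLF2, differed by -0.45 (adjusted p = 0.0231) and was called in 7 of 12. Spi1, Mef2c, Hdac9, Cxcl2 and Msr1 were called in 12 of 12. With 1 number left out of all 4 groups these calls were lost for Spi1 without number 3 (adjusted p = 0.0808), for Hdac9 without number 1 (0.0540) or 3 (0.0906), for Cxcl2 without number 3 (0.0970), for Msr1 without number 1 (0.135) or 3 (0.105), and for Mef2c without any of the 3 (0.0773 to 0.144).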

How the results depend on the processing

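Counts in knockdown were 2945 genes and 5 of the 9 factors; those of the difference were 543 and 1. With the replicate block they were 5081 genes in knockdown, 13 in overexpression, and 4658 genes and 7 factors for the difference. With no filter on low values 3 factors were called in knockdown and 2 for the difference, and with a mean of 5 FPKM required 2 in knockdown, since Maf, Klf2 and Tfec were then not tested. The counts over all genes with these filters are not given here. Leaving out single libraries, or a number from all groups, gave 449 to 2206 genes and 1 to 5 factors in knockdown, and 0 to 575 genes and 0 to 2 factors for the difference. Without number 1, 2 or 3 the factors called in knockdown were 3, 2 and 1, on 2 libraries a group. Every knockdown fit with libraries left out called fewer than the 2945 genes of the main fit. Lower counts are therefore not particular to the factors. Overexpression called 0 factors under every alternative run. Signs turned for changes near 0: Mitf in knockdown was -0.015 under median-of-ratios scaling and Mef2a in overexpression 0.0029 under the same scaling. With libraries left out, overexpression effects ranged from -0.037 to 0.12 for Runx1, -0.24 to 0.46 for Maf, -0.040 to 0.047 for Mef2a, -0.099 to 0.043 for Klf2, -0.017 to 0.19 for Klf6 and -0.25 to 0.079 for Tfec. The cause was not tested. Of 43 named genes called in knockdown, 25 were called whichever single library was left out. Tfec, Klf2 and Maf had the fewest reads of the 9, with 95 to 573 a library. For Maf, counting alone gave an SD of 4.69% to 6.38% over the 4 groups, beside a measured SD of 21.7% to 68.8%.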
